A study of Mus musculus with 4 samples.

Results

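Of the 35 genes described here, 18 encode integrins and 17 encode proteins of the focal adhesion inside the cell. The integrin genes are Itga1 to Itga11, Itgav, Itgb1, Itgb3, Itgb4, Itgb5, Itgb6 and Itgb8. The intracellular genes are Tln1, Tln2, Fermt2, Ilk, Lims1, Parva, Vcl, Actn1, Actn4, Flna, Tns1, Zyx, Vasp, Ptk2, Src, Bcar1 and Pxn. They were taken by name from the 21883 protein-coding genes of the RefSeq table for mm10, and all 35 were found. Every peak that overlapped the span of a gene, or the 10 kb on either side of it, was counted for that gene.

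Integrins are receptors of an alpha and a beta subunit that bind matrix proteins outside the cell. Talins and kindlins bind the tails of the beta subunits and switch the receptors on, and vinculin, alpha-actinins, filamin and zyxin tie them to actin filaments. Integrin-linked kinase, PINCH and parvin form a complex at these sites, where focal adhesion kinase, Src, p130Cas and paxillin carry signals. In the wall of an artery these contacts pass force between the contractile smooth muscle cell and its matrix.

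The peaks came from CUT&Tag of NR1D1 (REV-ERB alpha), a nuclear receptor of the circadian clock that represses transcription, in primary smooth muscle cells from the aorta of wild-type mice. In CUT&Tag an antibody brings a transposase to its target on chromatin, and the DNA cut out there is sequenced. Cultures were treated for 24 h with vasostatin-2, a fragment of the secretory protein chromogranin A, the control being phosphate-buffered saline (PBS), and 1 NR1D1 library of each treatment was analysed. The labels do not give the number of mice. The 2 matching IgG libraries were not used here. There is no replicate, so no treatment effect was tested: intervals given below cover counting error only, and each difference is one between 2 libraries.

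The vasostatin-2 list held 8816 peaks and the PBS list 7377, called by the authors at q under about 0.05. The median summit rested on 7 fragments in the vasostatin-2 library and 8 in the PBS library. By the uniform background behind the peaks, the vasostatin-2 library was 1.32 times as deep as the PBS library. Peaks of a nuclear receptor do not measure expression, so the cell type could not be checked by its markers: of 7 smooth muscle marker genes 2 had a vasostatin-2 peak and 3 a PBS peak in the same window, and of 4 endothelial, 4 leukocyte and 3 fibroblast marker genes 2, 1 and 0 in each list. The authors' fold enrichment (summit over local background), −log10 p and −log10 q are used only within their own list.

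In the vasostatin-2 list 15 of the 35 genes had at least 1 peak, and in the PBS list 21 did. The same was true of 28.0% of all protein-coding genes in the vasostatin-2 list and 29.5% in the PBS list, but long genes hold more peaks and these genes are long, with a median span of 71.5 kb against 17.2 kb. At the share of coding genes of the same span class, 13.2 genes would have had a vasostatin-2 peak and 12.6 a PBS peak. The vasostatin-2 count therefore lay near its background, and the PBS count above it. Peaks in both lists were found at 11 genes (31.4% of the 35, against 17.5% of all coding genes, or 7.83 genes by span class), in the vasostatin-2 list alone at 4 (against 10.5%), in the PBS list alone at 10 (against 12.0%), and in either list at 25 (against 40.0%). The shares for 1 list alone and for either list are of all coding genes and were not matched for span.

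The intracellular genes were above the PBS background, and the integrin genes near the background in both lists. Of the 17 intracellular genes 10 had a vasostatin-2 peak and 15 a PBS peak, where their span classes would give 6.46 and 6.11 and the share of all coding genes 4.77 and 5.02. The 95% Wilson interval of the vasostatin-2 share, 36.0 to 78.4%, includes the share of the span classes, and that of the PBS share, 65.7 to 96.7%, lies above it. The genes were chosen with earlier results of these data known, so such intervals describe them and are not tests. Of the 18 integrin genes 5 had a vasostatin-2 peak and 6 a PBS peak, where their span classes would give 6.77 and 6.49 and the share of all coding genes 5.05 and 5.32. Per megabase of span and flank, the intracellular genes held 7.89 vasostatin-2 peaks and 11.3 PBS peaks, the integrin genes 4.51 in each list, and all coding genes 5.35 and 5.49. The median span was 69.1 kb for the intracellular and 76.6 kb for the integrin genes. In neither list was there a peak at Itga1, Itga2, Itga4, Itga5, Itga6, Itgb1, Itgb4, Itgb5, Itgb8 or Fermt2, the gene of kindlin-2. Among them are both chains of the fibronectin receptor, Itga5 and Itgb1.

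**Figure D1:**
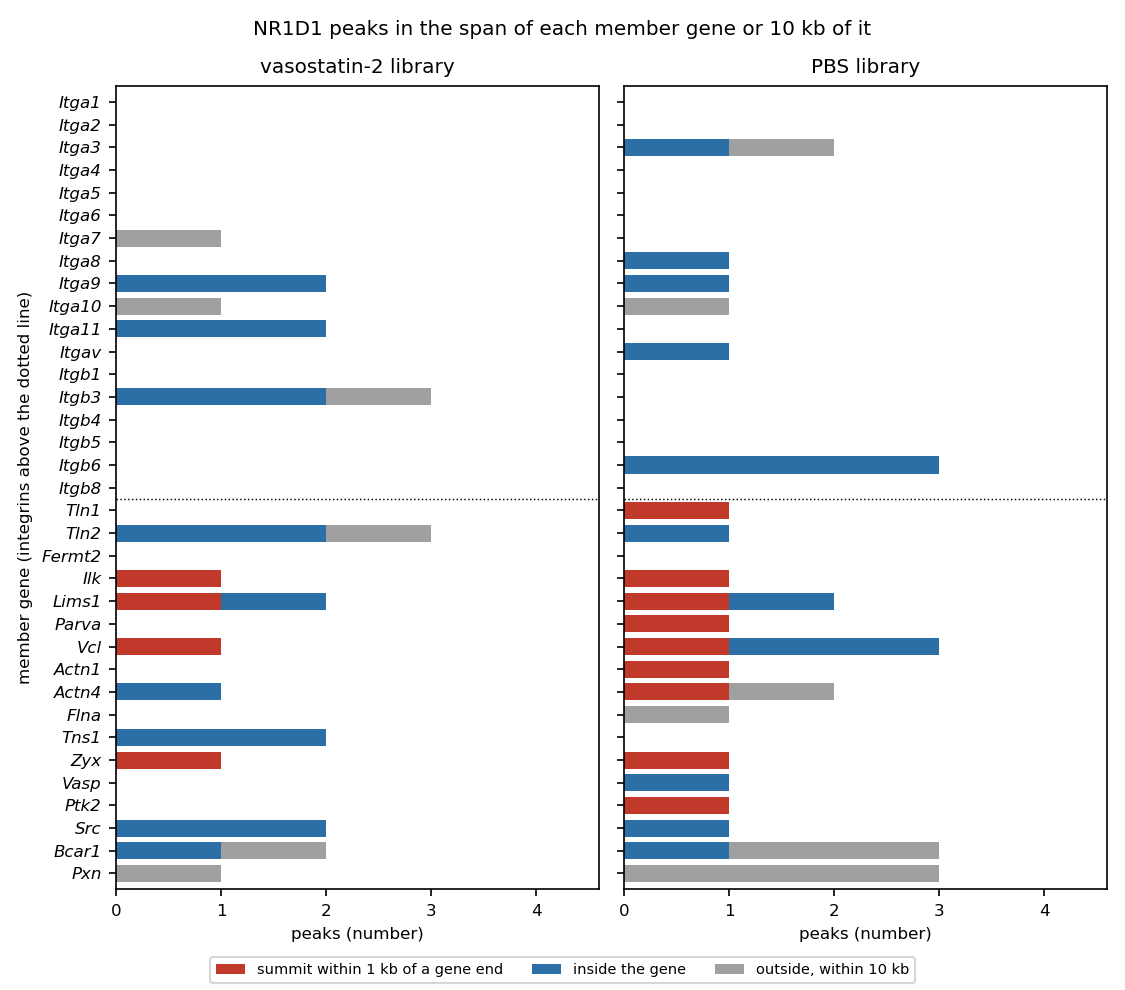
Number of NR1D1 peaks at each of the 35 genes (horizontal axis) in the vasostatin-2 library (left) and the PBS library (right), coloured by where the summit lies. All gene-end peaks, 4 in the vasostatin-2 list and 9 in the PBS list, belong to intracellular genes below the dotted line.

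Gene-end peaks were found at intracellular genes and at no integrin gene. A summit within 1 kb of either end was found at 4 of the 17 intracellular genes in the vasostatin-2 list and at 9 in the PBS list, and at 0 of the 18 integrin genes in both lists. Over all coding genes the shares were 10.0% and 14.3%, so that 17 genes would give 1.70 and 2.43, and 18 genes 1.80 and 2.58. The 4 genes with such a peak in the vasostatin-2 list, Lims1, Ilk, Vcl and Zyx, had one in the PBS list too (4 of 35 genes, against 6.91% of all coding genes). The 5 others, Tln1, Ptk2, Actn1, Actn4 and Parva, had one in the PBS list alone (against 7.41%), and no gene had one in the vasostatin-2 list alone (against 3.09%). When at least 8 summit fragments were asked for and vasostatin-2 summits were thinned to the PBS depth, 2 genes (Ilk and Lims1) had a gene-end peak in the vasostatin-2 list and 7 in the PBS list. The count of 2 is not firm, since the vasostatin-2 fragments of Zyx divided by the depth factor give 8.34, which meets that limit. The 95% Wilson interval of the intracellular share was 9.56 to 47.3% in the vasostatin-2 list, which includes its background, and 31.0 to 73.8% in the PBS list, which lies above its background. A share of 0 of 18 integrin genes allows up to 17.6%, which includes both backgrounds and overlaps the vasostatin-2 interval of the intracellular genes. These intervals too describe genes chosen with earlier results of these data known, and the difference between the groups was not tested. Where the promoter table gives the strand, all 4 vasostatin-2 and 7 PBS peaks were at the start of the gene and 0 at its other end. The strand of Ptk2 and Parva was not given there.

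**Figure D2:**
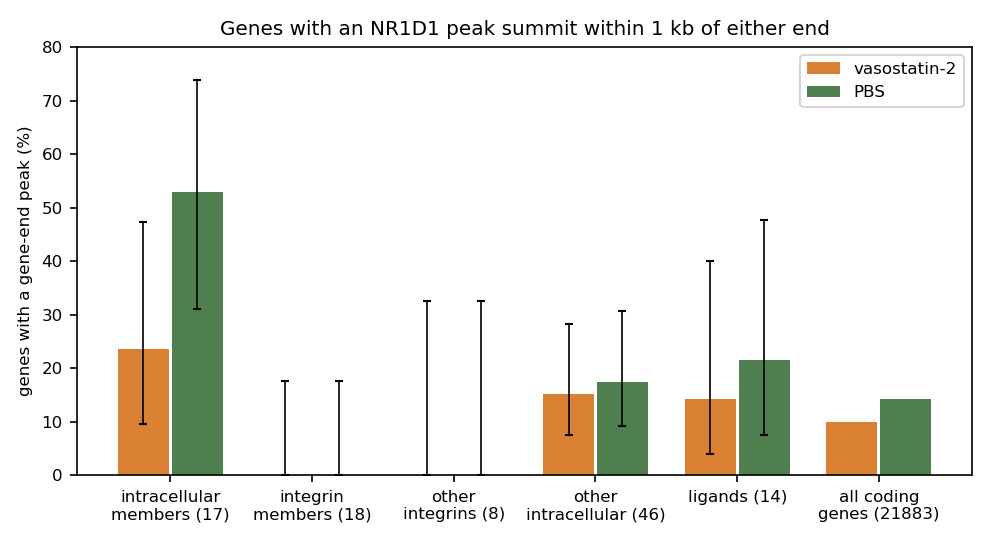
Share of genes (%) with a peak summit within 1 kb of either gene end in the vasostatin-2 list (orange) and the PBS list (green), for the described genes, 3 further adhesion lists and all coding genes, with 95% Wilson intervals. The 17 intracellular genes reach 23.5% and 52.9%, the integrins 0%, and the 46 further intracellular genes 15.2% and 17.4%.

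The complex of integrin-linked kinase, PINCH and parvin had a gene-end peak at all 3 of its genes in the PBS list and at 2 in the vasostatin-2 list. Lims1, which encodes the adaptor PINCH1, had 22 summit fragments and 10.2-fold enrichment in the vasostatin-2 library and 29 fragments and 9.69-fold in the PBS library (−log10 q 15.7 and 18.8). Both peaks began at 58322854 on chromosome 10; the vasostatin-2 peak ended at 58323416 and the PBS peak at 58323857, and the summits lay 311 and 374 bases before the annotated start. Both libraries therefore held a strong peak at the same site, within the top 2.21% and 4.84% of their lists by fold.

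Ilk, which encodes integrin-linked kinase, an adaptor despite its name, had 16 fragments and 10.04-fold enrichment in the vasostatin-2 library and 26 fragments and 12.2-fold in the PBS library (−log10 q 12.7 and 21.3). The summits lay 106 and 38 bases before the start, on chromosome 7. They also lay inside Rrp8, the gene of a nucleolar methyltransferase, 901 and 833 bp from an end of it, so the peak cannot be given to Ilk alone. The vasostatin-2 peak was in the top 2.42% of its list and the PBS peak in the top 1.62%. Parva, the gene of alpha-parvin, which links the complex to actin, had a PBS peak of 7 fragments and 5.17-fold, 709 bp inside an end of the gene. No vasostatin-2 peak was listed at Parva.

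Among the genes that link adhesions to actin, Vcl and Zyx had a start peak in both lists. Vcl encodes vinculin, which binds talin and actin when the contact is under tension. Its start peak held 10 fragments and 5.86-fold enrichment in the vasostatin-2 library and 24 fragments and 10.3-fold in the PBS library (−log10 q 4.67 and 17.1). The summits were 99 and 166 bases before the start, on chromosome 14. Vcl also had 2 PBS peaks inside the gene, 9265 and 44812 bp from an end, with 14 and 11 fragments and no vasostatin-2 counterpart. It thus had 1 vasostatin-2 and 3 PBS peaks.

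Zyx, the gene of zyxin, a LIM protein that follows tension in actin fibres, had nearly equal summits, with 11 fragments and 6.59-fold in the vasostatin-2 library and 12 fragments and 5.98-fold in the PBS library. The summits were 34 and 45 bases before the annotated start on chromosome 6. The vasostatin-2 peak was the wider one, with 817 bp against 282 bp.

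Actn1 and Actn4, which encode alpha-actinins that cross-link actin, had a start peak in the PBS list alone. Actn1 had 8 fragments and 5.34-fold enrichment, 70 bases after the start, and Actn4 had 7 fragments and 4.25-fold, 41 bases after it. Actn4 had a vasostatin-2 peak as well, but deep inside the gene, 25733 bp from an end and with 7 fragments. The talin gene Tln1 had a PBS start peak of 10 fragments and 5.35-fold, 188 bases after its start and 263 bp from an end of the neighbouring gene Creb3. Ptk2, the gene of focal adhesion kinase, had a PBS peak of 10 fragments and 7.02-fold, 547 bp inside an end. These 5 PBS-only gene-end peaks, Parva included, rested on 7 to 10 fragments, and the 4 shared ones on 12 to 29 in the same library.

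Of the shared and PBS-only start peaks, the 6 that reached into the 250 bases before an annotated start are shown by that sequence, since they are the sites at which the lists agree or differ at a promoter of these genes. The bases are from RefSeq on GRCm38.p6, written in the direction of the gene. Capitals mark matches to the motifs searched, which were AGGTCA (the hexamer at the core of NR1D1 sites), the RORE, RevDR2 (the hexamer repeated after any 2 bases), the CArG box of serum response factor, GGAATG of TEAD factors, TGANTCA of AP-1 and CACGTG, the E-box of clock factors.
Lims1, chr10:58323297-58323546, plus strand: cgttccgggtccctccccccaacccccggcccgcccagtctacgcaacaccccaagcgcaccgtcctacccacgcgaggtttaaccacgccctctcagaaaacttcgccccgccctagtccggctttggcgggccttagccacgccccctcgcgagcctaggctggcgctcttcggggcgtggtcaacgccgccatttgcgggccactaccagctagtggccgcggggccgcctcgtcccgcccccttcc
Ilk, chr7:105736340-105736589, plus strand: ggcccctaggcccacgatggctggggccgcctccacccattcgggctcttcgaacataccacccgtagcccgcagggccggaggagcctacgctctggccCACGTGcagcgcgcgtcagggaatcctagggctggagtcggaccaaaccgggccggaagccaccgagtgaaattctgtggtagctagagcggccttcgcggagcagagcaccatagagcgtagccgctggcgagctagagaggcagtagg
Vcl, chr14:20929148-20929397, plus strand: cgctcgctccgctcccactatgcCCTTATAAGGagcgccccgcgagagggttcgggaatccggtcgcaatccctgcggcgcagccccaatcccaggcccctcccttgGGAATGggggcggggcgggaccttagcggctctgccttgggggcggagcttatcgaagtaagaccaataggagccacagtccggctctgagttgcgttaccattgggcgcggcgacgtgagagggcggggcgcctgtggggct
Zyx, chr6:42349578-42349827, plus strand: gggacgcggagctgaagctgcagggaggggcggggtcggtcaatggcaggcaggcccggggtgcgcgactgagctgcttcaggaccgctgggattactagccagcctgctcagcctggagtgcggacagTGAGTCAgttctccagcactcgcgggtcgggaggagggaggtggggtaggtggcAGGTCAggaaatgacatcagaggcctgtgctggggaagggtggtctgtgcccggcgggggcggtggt
Actn1, chr12:80260364-80260613, minus strand: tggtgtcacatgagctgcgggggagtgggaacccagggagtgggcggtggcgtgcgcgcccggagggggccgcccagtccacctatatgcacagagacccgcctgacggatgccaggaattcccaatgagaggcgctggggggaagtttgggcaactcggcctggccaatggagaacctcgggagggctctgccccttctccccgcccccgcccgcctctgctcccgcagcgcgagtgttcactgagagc
Actn4, chr7:28962333-28962582, minus strand: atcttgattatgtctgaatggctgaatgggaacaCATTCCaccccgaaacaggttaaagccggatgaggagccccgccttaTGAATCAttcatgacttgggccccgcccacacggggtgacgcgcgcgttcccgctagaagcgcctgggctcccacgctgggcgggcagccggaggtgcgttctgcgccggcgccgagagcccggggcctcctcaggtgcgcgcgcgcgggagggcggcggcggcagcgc

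The vasostatin-2 peak covered all 250 bases of Ilk and Zyx, 189 of Vcl, 120 of Lims1 and 0 of Actn1 and Actn4. The PBS peak covered all 250 bases of Lims1, Ilk and Actn4, 198 of Vcl, 169 of Actn1 and 144 of Zyx. Within 250 bases before to 50 after the start, searched on both strands, AGGTCA stood at Zyx and in no other of the 33 windows of the 27 genes with an entry, against 16.3% of all 32851 windows of the table. Of the 21262 coding windows 14.7% held AGGTCA, and of those with a vasostatin-2 or a PBS peak 10.1% and 10.2%. No RORE and no RevDR2 was found in the 33 windows, where 0.384% and 0.0396% of all windows hold one. Vcl held a CArG box and a TEAD motif (1.63% and 14.7% of all windows), Ilk an E-box (7.15%), Zyx an AP-1 motif and Actn4 an AP-1 and a TEAD motif (AP-1 7.81%). The windows shown for Lims1 and Actn1 held none of them. Of the genes without a start peak, Fermt2 and 1 start of Itgb6 held a CArG box, Itga10, Itgb1 and Flna a TEAD motif, and Itga3 and Itga9 an AP-1 motif. AGGTCA is part of the RORE and of RevDR2, and no other pair of matches overlapped in these 6 sequences. A match describes the letters, and says nothing on what binds there.

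The starts with a peak were rich in CpG, as were those of all coding genes with a peak. Of the 33 windows, 5 were overlapped by a vasostatin-2 peak and 8 by a PBS peak, against 7.74% and 12.4% of all coding windows. CpG content is given as the ratio of CpG pairs found to those that the C and G content would give by chance order. It was at least 0.6 in 7 of the 8 windows with a peak (0.580 at Zyx). The same held for 87.5% of all coding windows with a vasostatin-2 peak and 86.9% of those with a PBS peak. With or without a peak, it reached 0.6 in 13 of 17 windows of intracellular genes and in 6 of 16 of integrin genes. Their medians were 0.844 and 0.501. Of all coding windows 47.7% reached it. Of all coding windows with such a ratio 14.2% were overlapped by a vasostatin-2 peak and 22.5% by a PBS peak, and of those under it 1.85% and 3.09%. Base composition thus moved with the peaks over all genes, and its part in the difference between intracellular and integrin genes was not tested. The 7 windows of intracellular genes without a gene-end peak had a median ratio of 0.871. No integrin window held a peak, those of Itgb1 (0.798) and Itga8 (0.882) included. The 6 integrin windows with a ratio of at least 0.6 are too few to weigh against the shares above.

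At sites found in both lists these genes stood near the whole series by the median ratio. The vasostatin-2 library held fewer fragments per unit of depth in 8 of 9 pairs (88.9%), and in 84.0% of all shared pairs and 95.5% of those at coding gene ends. The 9 pairs were the starts of Lims1, Ilk, Vcl and Zyx, 1 site inside Src, 1 inside and 1 outside Bcar1, and sites outside Pxn and Itga10. Summit fragments were divided by depth, and the median of the log2 ratio of vasostatin-2 to PBS was -0.80, beside -0.62 over all 2651 shared pairs. At the 4 starts it was -0.95, beside -0.85 at the 1184 shared pairs at coding gene ends. Summed fragments gave -1.02 over the 9 pairs (-1.38 to -0.65), beside -0.58 over all shared pairs, a comparison not matched by place. At the 4 starts the sums gave -1.02 (-1.52 to -0.54), beside -0.90 at coding gene ends. At the 5 other pairs the interval was -1.57 to -0.45, beside a ratio of -0.43 at shared pairs away from coding gene ends. These 5 include the pairs beside Pxn and Itga10, which lie at ends of Sirt4 and Ankrd35. By counting error alone the interval lay below 0 at 3 pairs of 9, against 16.5% of all shared pairs: Vcl (-1.66, exact 95% interval -2.89 to -0.54), Ilk (-1.10, -2.10 to -0.15) and the site beside Pxn (-1.68, -2.62 to -0.81). At Lims1 (-0.80, -1.67 to 0.05) and Zyx (-0.52, -1.85 to 0.78) it included 0. At Bcar1, the gene of the Src substrate p130Cas, the site inside the gene had 12 fragments in the vasostatin-2 library and 9 in the PBS library (0.02, -1.35 to 1.44). Without scaling for depth the median over the 9 pairs was -0.40.

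**Figure D3:**
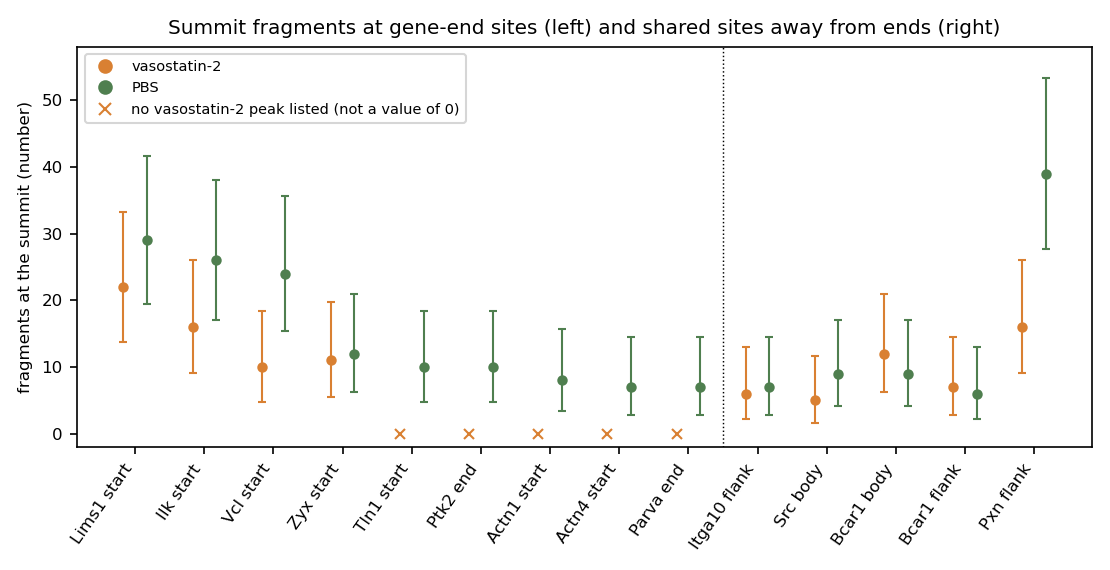
Fragments at the summit (number) in the vasostatin-2 library (orange) and the PBS library (green) at the gene-end sites of the described genes and, right of the dotted line, at their shared sites elsewhere, with exact 95% Poisson intervals; crosses mark sites with no vasostatin-2 peak. Lims1, Ilk and Vcl have 22, 16 and 10 fragments in the vasostatin-2 library and 29, 26 and 24 in the PBS library.

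The 5 PBS-only gene-end peaks had few fragments, and peaks with few fragments were often in 1 list across the genome. With 6 to 8 fragments, as at Actn1, Actn4 and Parva, 23.2% of all PBS peaks had a vasostatin-2 counterpart. With 9 to 12 fragments, as at Tln1 and Ptk2, 45.4% did. In the vasostatin-2 list the shares with a PBS counterpart were 22.7% and 47.4%. Scaled to the vasostatin-2 library by background depth alone, these 5 peaks correspond to 9.23 to 13.2 fragments. A listing there needed 5 to 7. All 5 were above that need. So were all 18 other PBS-only peaks at the described genes, and 8 of the 16 vasostatin-2-only peaks. PBS fragments were scaled up to the deeper library, so a listed PBS peak was almost bound to pass. Vasostatin-2 fragments were scaled down, so these counts cannot be set against each other. The scaling also leaves out the lower vasostatin-2 summits at shared sites, with a median log2 ratio of -0.85 at shared pairs at coding gene ends. Why no vasostatin-2 peak was listed was not tested, and a missing peak is not shown to be absent.

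Away from gene ends most peaks were in 1 list, as over the whole lists. At the described genes 16 vasostatin-2 and 18 PBS peaks there were in 1 list, and 5 pairs were shared. Over the whole lists 1467 pairs were shared away from coding gene ends, where 6962 vasostatin-2 and 4732 PBS peaks lay. The rules differ, since for the described genes only their own ends counted. The shared pairs beside Pxn and Itga10, at ends of Sirt4 and Ankrd35, were therefore among those away from ends. Of the 9 PBS gene-end peaks 5 were in 1 list as well. Over all coding genes, 1621 of the 3134 with a PBS gene-end peak had no vasostatin-2 gene-end peak. Inside the genes, over 1 kb from an end, there were 15 vasostatin-2 peaks at 9 genes and 14 PBS peaks at 11 genes, against 11.3% and 9.08% of all coding genes (8.25 and 6.35 genes by span class). Outside, within 10 kb, there were 6 vasostatin-2 peaks at 6 genes and 9 PBS peaks at 6 genes, against 10.3% and 10.5% of all coding genes. Of all 25 vasostatin-2 peaks at the described genes 4 were at gene ends (16%, 95% Wilson interval 6.40 to 34.7), and of the 32 PBS peaks 9 were (28.1%, 15.6 to 45.4). With the ends of neighbouring coding genes included, 6 of 25 vasostatin-2 peaks (24%, 11.5 to 43.4) and 15 of 32 PBS peaks (46.9%, 30.9 to 63.6) lay at an end. Of all peaks in a coding span or 10 kb of it 31.9% and 47.7% did, and of all peaks 21.0% and 35.9%. Of the 25 vasostatin-2 peaks 9 overlapped a PBS peak (36%, 20.2 to 55.5; 30.0% of the whole list), and 9 of the 32 PBS peaks the reverse (28.1%, 15.6 to 45.4; 35.6% of the whole list).

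Itga9 held the strongest peak of the vasostatin-2 list at these genes. The alpha-9 chain, which pairs with beta-1 and binds tenascin-C and osteopontin, had a vasostatin-2 peak of 33 fragments, 17.6-fold enrichment and −log10 q of 34.6 inside the gene, on chromosome 9, 118797955 to 118798198. It was in the top 0.386% of the list by fold and 86349 bases from the annotated start, and no PBS peak overlapped it. At the PBS depth its 33 fragments correspond to 25.03, where a listing needed 6. Over the whole vasostatin-2 list 90.6% of peaks with 21 to 49 fragments had a PBS counterpart. Its width of 244 bp was close to the median of that list, 255 bp. Itga9 had a second vasostatin-2 peak with 8 fragments and, elsewhere in the gene, a PBS peak with 9.

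Apart from Itga9 and Itga10, integrin genes with a peak had it in 1 list only, inside the gene or beside it. Itga11, whose product is a collagen receptor, had 2 vasostatin-2 peaks with 13 and 9 fragments (8.22-fold and 6.39-fold) and 0 PBS peaks. Itgb3, the beta chain of the vitronectin receptor, had 3 vasostatin-2 peaks with 9, 6 and 9 fragments and 0 PBS peaks, the nearest 2513 bp outside an end. Itgb6, an epithelial chain that activates latent TGF-beta, had 3 PBS peaks with 8, 8 and 11 fragments and 0 vasostatin-2 peaks. Itga8, the nephronectin receptor chain of smooth muscle, had 1 PBS peak with 7 fragments (6.11-fold). Itga3 had 2 PBS peaks and Itgav 1, and Itga7 had 1 vasostatin-2 peak with 5 fragments. Scaled to the PBS depth, the Itga7 peak and the Itgb3 peak of 6 fragments fell below the 4 and 5 fragments needed for a listing. The shared pair beside Itga10, with 6 fragments in the vasostatin-2 library and 7 in the PBS library, lay 74 and 72 bp from an end of Ankrd35.

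Several peaks counted for an intracellular gene lay closer to a neighbour. Beside Pxn, the gene of the scaffold paxillin, the shared peak held 16 fragments in the vasostatin-2 library and 39 in the PBS library (5.70-fold and 8.32-fold), but it was 301 and 371 bp from an end of Sirt4 and 2007 and 2077 bp from Pxn. Another PBS peak beside Pxn, with 8 fragments, was 96 bp from an end of Rplp0, a ribosomal protein gene. The only peak at Flna, the filamin A gene, with 14 PBS fragments and 7.29-fold, was 54 bp from an end of Emd, the emerin gene. Of the peaks counted here 4 of 25 in the vasostatin-2 list and 8 of 32 in the PBS list were nearer to an end of another coding gene, or inside one and outside the named gene. Tns1, the tensin 1 gene, had 2 vasostatin-2 peaks with 7 and 8 fragments deep inside it, and Tln2 had 3 vasostatin-2 peaks and 1 PBS peak with 4 to 6 fragments.

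By the authors' values the gene-end peaks of these genes had the higher medians, as gene-end peaks did over the whole lists. In the vasostatin-2 list the 4 had a median fold of 8.31, against 5.23 inside the genes and 4.44 outside; over the whole list it was 5.29 at coding gene ends and 5.06 elsewhere. In the PBS list the 9 had a median of 5.98, near the 5.80 of all peaks at coding gene ends, against 5.60 inside the genes and 5.02 outside, with 5.10 for all peaks away from coding gene ends. Median −log10 p was 13.8 at the ends, 7.02 inside and 5.63 outside in the vasostatin-2 list, and 9.36, 8.09 and 7.62 in the PBS list. Median −log10 q was 9.31, 3.38 and 2.34 in the vasostatin-2 list, and 5.47, 4.38 and 3.97 in the PBS list. At the 4 shared starts the PBS median was 9.99-fold, and at the 5 PBS-only gene ends 5.34-fold, below the median inside the genes.

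**Figure D4:**
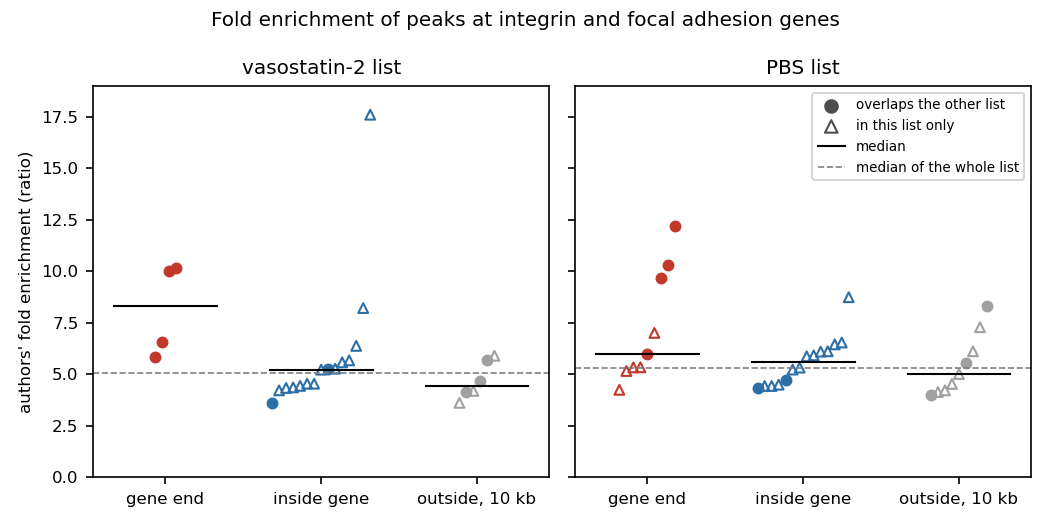
The authors' fold enrichment (ratio) of each peak at the described genes in the vasostatin-2 list (left) and the PBS list (right), by place of the summit; filled circles overlap a peak of the other list, open triangles do not, black lines are medians and dashed lines the median of the whole list. The 4 vasostatin-2 gene-end peaks lie at 5.86-fold to 10.2-fold, and the single triangle at 17.6-fold is the peak inside Itga9.

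The rest of the adhesion machinery lay near the background at gene ends. Of 46 further adaptors, kinases and actin linkers 7 had a gene-end peak in the vasostatin-2 list and 8 in the PBS list, where their span classes would give 4.79 and 6.82. Those with one in both lists were Arhgap35, Lpxn, Rhoa, Rock1 and Shc1. Rhoa, the GTPase that drives stress fibres, had 15 fragments in the vasostatin-2 library and 20 in the PBS library, and Lpxn, the gene of the paxillin relative leupaxin, had 15 and 26. Git1 and Rock2 had a gene-end peak in the vasostatin-2 list alone, and Crk, Crkl and Pak2 in the PBS list alone. Of 8 other integrin genes, mostly those of leukocytes and platelets, 0 had a gene-end peak in either list, where their span classes would give 0.920 and 1.32. Of 14 genes of integrin ligands 2 had one in the vasostatin-2 list and 3 in the PBS list, where their span classes would give 1.45 and 2.02. These were Lamc1 (laminin gamma-1; 15 and 37 fragments) and Fn1 (fibronectin; 7 and 7) in both lists, and Thbs1 (thrombospondin-1; 11) in the PBS list.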

How the data were processed

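CUT&Tag peak lists of 2 NR1D1 libraries, 1 per treatment, were analysed. Trimmomatic 0.39, BWA 0.7.17 and MACS2 2.2.7.1 and build mm10 are named, without roles or settings, in the submitters' processing notes. The deposited files carry no header line; their columns are read in the order MACS2 writes them: fold enrichment (a ratio), −log10 p-value and −log10 q-value of the summit. The deposited score equals the −log10 q times 10 rounded down and was not used. Deposited start, end and summit are written from 1.

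Summit fragments and background were recovered as the whole number of fragments that fits the Poisson p-value and the fold, within 0.0005 of the deposited −log10 p for 100% of peaks. Floor and step of the background gave fragment lengths of 183 bp (vasostatin-2) and 196 bp (PBS) and the depth factor of 1.32, assuming a local window of 10000 bp. The total depth is not known here.

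Gene spans came from RefSeq GRCm38.p6, and strand, starts and sequence from its promoter table, which held 27 of the 35 genes (not Itga6, Itga7, Itgb3, Itgb4, Tln2, Parva, Ptk2 and Pxn). Sharing means an overlap of at least 1 bp. Shares have Wilson and fragment counts exact intervals; log2 ratios have exact (Clopper-Pearson) intervals. Genes named in full had a gene-end peak, or 1 of the 5 highest folds per list among the rest. Genes and lists were chosen with earlier results of these data known. Promoters shown are those into whose 250 bases before the start a peak reached, a wording settled after the peaks were seen; it takes in Vcl and leaves out Tln1. Fragment recovery, sharing, gene windows, gene ends and the ratio interval were tested on simulated data (Python 3.11.15, SciPy 1.17.1).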

Additional observations from a re-analysis of the deposited data

How the results depend on the processing

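Windows of 0 and 3 kb, other limits for a gene end, other rules of overlap, stricter peaks and leaving out peaks nearer to another gene gave 74 recomputed values, of which 64 stayed inside the interval or within 1.5 times the reported count. With q at or under 0.001 the vasostatin-2 peaks numbered 14. With at least 8 fragments they numbered 13, and both lists held a peak at 7 genes. With vasostatin-2 summits also thinned to the PBS depth, 5 genes had a vasostatin-2 peak and 4 a peak in both lists. There were then 5 vasostatin-2 peaks, of which 40% were at gene ends and 60% shared, and 13.6% of PBS peaks were shared. These thinned values are not firm: Zyx was dropped, though its vasostatin-2 fragments divided by the depth factor give 8.34. Without depth scaling the median log2 ratio at shared sites was -0.40. Stricter settings keep fewer peaks by their construction; other causes were not tested. No integrin gene had a gene-end peak in any of these settings, except Itgb3 in the vasostatin-2 list when an end reached 3 kb; that limit gave 6 intracellular genes in the vasostatin-2 list and 12 in the PBS list. Without peaks that lie in another gene, Ilk left the gene-end group, which then held 3 genes in the vasostatin-2 list and 8 in the PBS list. Summits of 4 to 8 fragments limit every count in 1 list. No paired analysis was possible because each treatment has 1 NR1D1 library.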
